A study of Mus musculus with 10 samples.

Results

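The genes described here are 35 members of the cell's response to misfolded protein, of 54532 genes in the deposited gene table. They were chosen by name, as heat shock and unfolded protein response genes, and for each symbol the row with the most counts was taken. There were 10 genes of cytosolic heat shock, 2 subunits of the mitochondrial chaperonin, 17 genes of folding and quality control in the endoplasmic reticulum (ER), and 6 stress transcription factors or targets of the factors ATF4 and CHOP. All 35 passed the filter on low counts.

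Heat shock factor 1 (HSF1) responds to unfolded protein in the cytosol by driving genes for chaperones of the HSP70, HSP90, HSP40 and small heat shock families. In the ER, the sensors IRE1, PERK and ATF6 make up the unfolded protein response: ATF6 and spliced XBP1 drive ER chaperones and degradation factors, and PERK leads through ATF4 to CHOP and to genes of amino acid supply. In heart muscle, the small heat shock proteins HSPB1, HSPB7 and HSPB8 bind filaments and other clients, and HSPB8 acts with BAG3 to pass damaged sarcomere proteins to autophagy.

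RNA was sequenced from left atrial tissue of 10 mice aged 7 weeks, after removal of the appendage and with 1 to 2 mm of vein left on, which is called the peri-pulmonary vein region below. The 4 controls (Ctrl) were R26creERT2/creERT2; Tbx5+/+ and the 6 conditional mutants (CKO) were R26creERT2/creERT2; Tbx5flox/flox. Both groups carried the tamoxifen-inducible Cre at the Rosa26 locus on both chromosomes, so the deletion was not limited to muscle cells, and both received tamoxifen by intraperitoneal injection on 3 days at 6 weeks of age, 1 week before collection. Tbx5 encodes a T-box transcription factor of the atria. The labels do not say whether libraries shared a litter or an extraction day.

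Libraries summed to 8602794 to 10040808 counts. Levels are given as CPM, counts scaled to a common library size with TMM factors, and levels of different genes are compared in TPM, which also divides by transcript length. Exon 3 of Tbx5 had 0.903 to 1.70 times the coverage of the median exon in Ctrl and 0.175 to 0.618 times in CKO, without overlap, while total Tbx5 RNA ranged over 89.6 to 159 CPM in Ctrl libraries and over 167 to 425 CPM in CKO libraries. Cardiomyocyte markers summed to 37800 to 43910 CPM in Ctrl and 27540 to 42950 CPM in CKO, a sum that hides opposite changes: of the 8 markers 1 passed the edgeR threshold as higher and 3 as lower. Tnnt2 rose by 0.73 and Myl7 fell by 2.61 on the log2 scale, both without overlap. Airway lining transcripts summed to 4055 CPM in Ctrl 3, to 6747 CPM in CKO 4 and to 7.66 to 239 CPM elsewhere. B and plasma cell transcripts stood at 862, 1666 and 1177 CPM in Ctrl 3, Ctrl 4 and CKO 4, against 58.3 to 115 CPM elsewhere. Fibroblast marker sums (4300 to 7841 CPM in Ctrl, 8148 to 15490 CPM in CKO), endothelial sums (980 to 1609 and 1852 to 2564 CPM) and immediate early gene sums (197 to 378 and 423 to 741 CPM) did not overlap between the groups. The immediate early sums include Atf3, with 139 of 434 CPM in CKO 4 and 26.9 of 378 CPM in Ctrl 3. Without Atf3 these sums overlap. The part of these differences in the results on heat shock and ER stress genes was not tested, and in RNA from whole tissue fewer cells of a type and less RNA per cell cannot be told apart.

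Many promoters of the members hold a known element of the heat shock, ER stress or ATF4 arm, and a few are shown so that these elements can be seen in place. RefSeq promoters of GRCm38.p6, from 250 bases before to 50 bases after each start, matched 31 of the 35 members. Hyou1, Hspa8, Manf and Hsp90aa1 were not in that table. The heat shock element was searched as a pair of units, GAANNTTC or TTCNNGAA. In each window capitals mark the match around which the window was cut.
Hspb1, chr5:135887782-135887829, plus strand: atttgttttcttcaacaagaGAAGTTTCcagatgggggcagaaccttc
Hspa1a, chr17:34972233-34972280, minus strand: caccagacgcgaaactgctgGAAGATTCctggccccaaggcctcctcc
Hsph1, chr5:149636342-149636389, minus strand: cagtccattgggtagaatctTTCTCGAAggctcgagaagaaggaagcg
Hspe1, chr1:55088039-55088096, plus strand: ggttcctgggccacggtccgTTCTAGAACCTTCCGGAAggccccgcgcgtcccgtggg

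The Hspb1 pair in capitals lies 117 bases before the RefSeq start. A further pair, in lower case at the end of that window, follows 97 bases before the start. The window of Hspa1b, on the same chromosome, has the same letters as that of Hspa1a. The Hspe1 window is also the Hspd1 promoter read on the other strand, since these chaperonin genes are transcribed away from each other from a shared stretch. Its capitals hold 3 or more alternating units in a row, a form found in 0.662% of 27025 gene promoters and in the members Hspd1, Hspe1 and Hsph1. A pair was present in 6 of 8 cytosolic members with a promoter, in 2 of 2 chaperonin members, in 0 of 15 ER members and in 1 of 6 stress factor and target genes, against 17.0% of all promoters.

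The ER stress element was searched as CCAAT, any 9 bases and CCACG on either strand. In these windows capitals mark the whole element, including the 9 free bases.
Hspa5, chr2:34772005-34772063, plus strand: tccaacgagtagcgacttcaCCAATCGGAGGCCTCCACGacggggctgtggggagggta
Hsp90b1, chr10:86705618-86705676, minus strand: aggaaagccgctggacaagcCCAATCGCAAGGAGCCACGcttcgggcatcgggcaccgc
Dnajc3, chr14:118937807-118937865, plus strand: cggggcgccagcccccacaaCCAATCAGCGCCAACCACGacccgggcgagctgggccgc
Creld2, chr15:88819500-88819558, plus strand: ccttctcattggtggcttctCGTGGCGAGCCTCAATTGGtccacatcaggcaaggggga

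The element was found in 37 of 27025 promoters (0.137%) and in 7 of 15 ER members, namely Calr, Canx, Creld2, Dnajc3, Hsp90b1, Hspa5 and Pdia6. It was in 0 of the members of the other groups. The UPR element TGACGTGG was in 0.714% of all promoters and in 0 members.

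The ATF4 element, TGATGNAA on either strand, was in 4.51% of all promoters and in the members Asns, Chac1, Trib3 and Herpud1. Capitals mark it below, and in Asns they run on over a heat shock pair that overlaps it.
Asns, chr6:7693201-7693252, minus strand: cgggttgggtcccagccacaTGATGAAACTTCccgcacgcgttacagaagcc
Chac1, chr2:119351029-119351076, plus strand: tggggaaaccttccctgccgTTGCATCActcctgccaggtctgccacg
Of the 31 members with a promoter, 12 held none of the elements searched, among them Xbp1, Atf4, Ddit3, Hspb7 and Dnajb1. A match of letters describes the sequence and does not show that a factor binds there.

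After Tbx5 deletion, 1 of the 35 members passed the threshold of an adjusted p of 0.05 in the peri-pulmonary vein region. This was Hspb1, which was higher. No member passed it in the lower direction. The share called was 2.86% of the members beside 2.8% of the 17752 genes tested (edgeR's quasi-likelihood test, Benjamini-Hochberg adjustment over all tested genes), so the members stood at the background. At an unadjusted edgeR p under 0.05 there were 5 of 35 members (14.3%) against 17.0% of all tested genes. No member separated the groups without overlap, against 5.72% of tested genes. The median log2 fold change over the members was 0.11, with 23 positive and 12 negative, beside a median of -0.03 over all tested genes. DESeq2 called 2 members, Hspb1 and Hspb8.

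**Figure D1:**
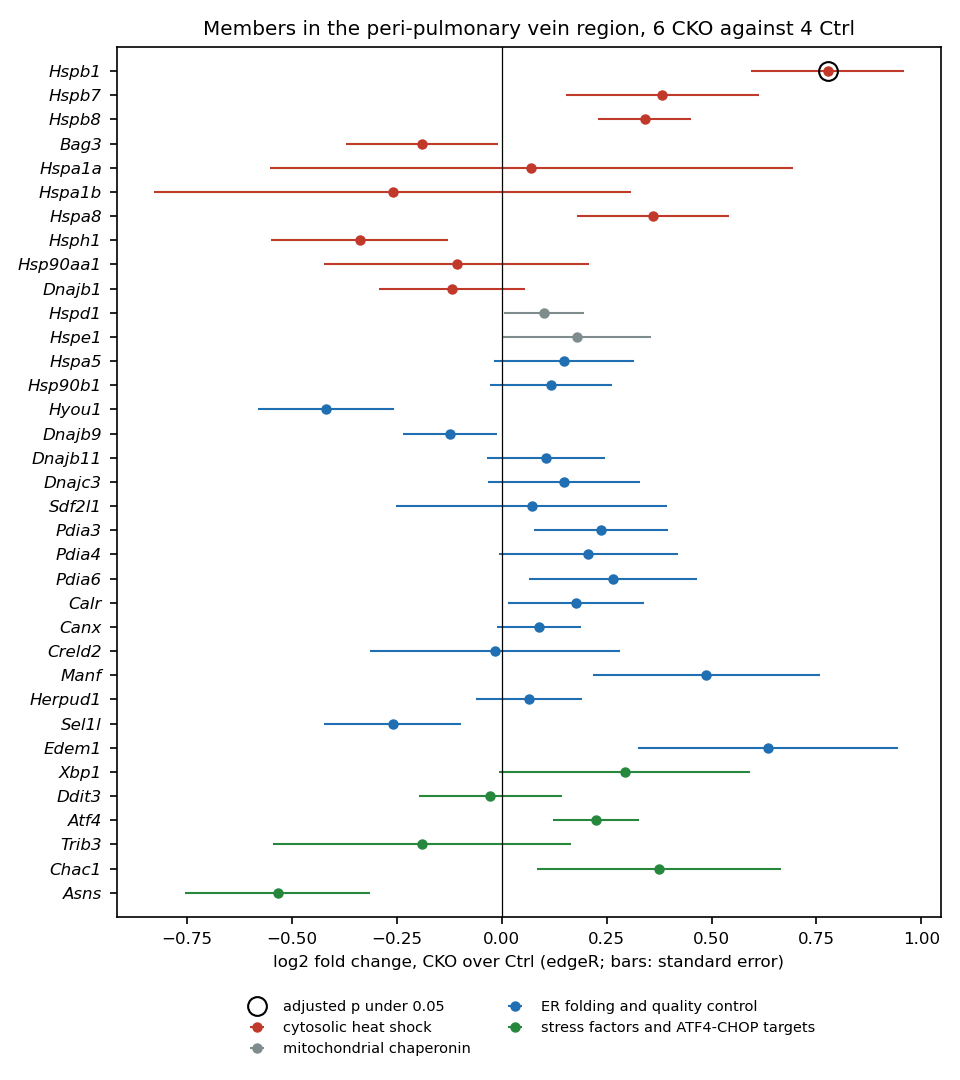
The log2 fold change of each of the 35 members, CKO over Ctrl, is plotted with its standard error, coloured by role group. The ring marks Hspb1 at 0.78, the member past the adjusted threshold, and the bars of many other members reach or cross 0.

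Among the cytosolic members, the small heat shock genes Hspb1, Hspb7 and Hspb8 and the cochaperone Bag3 had a median log2 fold change of 0.36. The other 6 cytosolic members had one of -0.11. Hspb1 encodes a filament-binding small heat shock protein. It stood at 94.4, 72.0, 100.3 and 111 CPM in Ctrl 1 to 4 and, over the 6 CKO libraries, at a lowest of 109, a median of 172 and a highest of 207 CPM. CKO 4 lay within the Ctrl range and the other 5 CKO libraries lay above it, in CPM and in TPM. The log2 fold change was 0.78 with a standard error of 0.18 (adjusted p = 0.0472, edgeR), from 94.5 ± 16.6 CPM (SD, n = 4) to 162 ± 34.8 CPM (n = 6). The call was close to the threshold. It held in 7 of 22 other settings, with fold changes of 0.62 to 1.06 on the log2 scale and adjusted p-values of 0.00114 to 0.326 (edgeR, limma or DESeq2). Leaving out single libraries, it held without CKO 4 (edgeR adjusted p = 0.0171) and was lost in the other 9 fits (0.0564 to 0.147). Without Ctrl 3 and CKO 4, which held airway transcripts, the log2 fold change was 0.92 (edgeR adjusted p = 0.0278).

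Hspb8, the small heat shock protein that works with BAG3, stood at 190, 175, 211 and 228 CPM in Ctrl and at 219, 258 and 296 CPM as the lowest, median and highest in CKO. In CPM, CKO 4 again fell inside the Ctrl range and the other 5 CKO libraries exceeded all Ctrl, whereas in TPM 1 of 6 did. The log2 fold change of 0.34 (standard error 0.11) did not pass with edgeR (adjusted p = 0.146) and passed with DESeq2 (adjusted p = 0.0244), and on the TPM scale it was 0.20. The median of all genes on the TPM scale was -0.16, and relative to it Hspb8 stood at 0.35. Hspb7, a small heat shock protein of heart muscle, had CPM of 562, 558, 336 and 443 in Ctrl and of 386, 654 and 821 in CKO, with a log2 fold change of 0.38 (standard error 0.23, edgeR adjusted p = 0.43). Its ranges overlapped, and Ctrl 3 and CKO 5 were the lowest of their groups. Bag3 itself was at 56.5 to 78.1 CPM in Ctrl and 41.3 to 82.3 CPM in CKO, with a log2 fold change of -0.19 (standard error 0.18).

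The stress-inducible HSP70 genes were the least abundant and most variable cytosolic members. Hspa1b stood at 4.97, 3.82, 30.5 and 11.5 CPM in Ctrl and at 3.58, 10.7 and 17.3 CPM in CKO. Hspa1a stood at 1.69, 2.19, 20.3 and 9.86 CPM in Ctrl and at 4.14, 7.79 and 15.3 CPM in CKO. For both genes Ctrl 3 was the highest of all 10 libraries and the Ctrl range took in nearly every CKO value. The coefficient of variation among Ctrl was 97.2% for Hspa1b and 102% for Hspa1a, and the log2 fold changes were -0.26 (standard error 0.57) and 0.07 (0.62). The reading frames of these neighbouring genes on chromosome 17 are 99.4% identical over 1929 aligned bases and their promoters differ at 4 of 300 positions, so the split of reads between them is uncertain. Hspa1a and Hspa1b lack introns, and the files were made with a stranded setting from a kit that does not mark strand, whose effect on their counts was not tested.

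Hspa8, the constitutive HSP70 of the cytosol, stood at 408, 391, 555 and 622 CPM in Ctrl and at 519, 580 and 807 CPM in CKO, with a log2 fold change of 0.36 (standard error 0.18, edgeR adjusted p = 0.34). CKO 5 and CKO 6 exceeded all Ctrl and the rest overlapped. Hsph1, the HSP110 that exchanges nucleotide on HSP70, stood at 50.2, 48.5, 83.2 and 91.5 CPM in Ctrl and at 40.1, 52.2 and 73.8 CPM in CKO, with a log2 fold change of -0.34 (standard error 0.21). Its 2 high Ctrl libraries were Ctrl 3 and Ctrl 4. Hsp90aa1, the inducible cytosolic HSP90, ran from 74.5 to 244 CPM in Ctrl and from 103 to 211 CPM in CKO. Dnajb1, an HSP40 that recruits HSP70 to clients, ran from 25.7 to 50.2 CPM in Ctrl and from 27.9 to 38.6 CPM in CKO. Their log2 fold changes were -0.11 (standard error 0.32) and -0.12 (standard error 0.17), within the spread of the libraries.

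The mitochondrial chaperonin genes differed little. Hspd1, the HSP60 barrel subunit, stood at 195, 193, 165 and 185 CPM in Ctrl and at 171, 199 and 219 CPM in CKO, with a log2 fold change of 0.10 (standard error 0.10). Hspe1, the HSP10 lid, stood at 84.0, 82.6, 109 and 72.2 CPM in Ctrl and at 78.3, 91.2 and 141 CPM in CKO, with a log2 fold change of 0.18 (standard error 0.18). Neither passed the test, and the CKO range of each began inside the Ctrl range.

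Of the 17 ER folding and quality control members, 0 passed the adjusted threshold in either direction, and 1, Hyou1, had an unadjusted edgeR p under 0.05. Their median log2 fold change was 0.12, with 13 positive and 4 negative. Hspa5 encodes BiP, the ER HSP70 that also restrains the stress sensors. It stood at 542, 521, 825 and 691 CPM in Ctrl and at 573, 680 and 883 CPM in CKO, a log2 fold change of 0.15 (standard error 0.17, edgeR adjusted p = 0.69). Ctrl 1 and Ctrl 2 were the lowest of all libraries and Ctrl 3 stood among the highest, so the difference within Ctrl exceeded that between the groups. Hsp90b1, the ER HSP90, had a log2 fold change of 0.12 (standard error 0.15).

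Hyou1, the large ER HSP70-like exchange factor for BiP, was the ER member with the lowest p. It stood at 76.0, 95.0, 115 and 137 CPM in Ctrl and at 64.5, 78.7 and 91.3 CPM in CKO, and 2 CKO libraries lay below all Ctrl. It differed by -0.42 on the log2 scale (standard error 0.16, edgeR adjusted p = 0.222). On the TPM scale it was -0.06, where the median of all genes was -0.16, and relative to that median it was 0.10. Edem1, which passes misfolded glycoproteins to degradation, had the next lowest p and the largest positive value of the group. It stood at 17.9, 45.0, 57.1 and 25.7 CPM in Ctrl and at 39.2, 51.9 and 80.7 CPM in CKO, a log2 fold change of 0.63 (standard error 0.31, edgeR adjusted p = 0.328). In TPM it stood at 18.0, 21.0, 22.2 and 24.5 in Ctrl and from 17.9 to 29.4 in CKO. That was a log2 change of 0.06, beside the same median of -0.16. The libraries low in CPM, Ctrl 1 and Ctrl 4, had 9.17 and 9.11 TPM assigned to a transcript of 459 bases, against 0.86 to 3.98 TPM in the other libraries. Expected counts grow with transcript length, so the CPM of Edem1 can depend on how coverage was shared between its short and long transcripts. How much of its CPM difference came from this was not tested.

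Manf, a secreted ER stress factor, had a log2 fold change of 0.49 (standard error 0.27), with CKO 5 at 115 CPM and CKO 6 at 92.3 CPM above a Ctrl range of 39.1 to 66.0 CPM. The disulfide isomerases Pdia3, Pdia4 and Pdia6 had log2 fold changes of 0.24, 0.21 and 0.27 (standard errors 0.16, 0.21 and 0.20). The lectin chaperones Calr and Canx stood at 0.18 and 0.09 (standard errors 0.16 and 0.10). The ER cochaperones Dnajb9, Dnajb11, Dnajc3 and Sdf2l1 had log2 fold changes of -0.12, 0.11, 0.15 and 0.07. Creld2, an ER stress target, stood at -0.02, and the degradation factors Herpud1 and Sel1l stood at 0.06 and -0.26. Each of these lay within 2 standard errors of 0.

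Of the 6 stress factor and target genes, 0 passed the adjusted threshold and 2 had an unadjusted edgeR p under 0.05, in opposite directions. Asns, the asparagine synthetase gene that ATF4 drives, stood at 21.3, 14.2, 15.7 and 16.8 CPM in Ctrl and at 6.48, 12.1 and 16.5 CPM in CKO. In CPM, CKO 5 lay inside the Ctrl range and the other 5 CKO libraries lay below it, whereas in TPM 3 of 6 did. CKO stood at -0.53 against Ctrl on the log2 scale (standard error 0.22, edgeR adjusted p = 0.249), and at -0.26 on the TPM scale, where the median of all genes was -0.16. Atf4 itself stood at 99.6, 97.1, 100.9 and 93.1 CPM in Ctrl and at 95.8, 114 and 131 CPM in CKO, and 5 of 6 CKO libraries exceeded all Ctrl in CPM and 3 of 6 in TPM. Its log2 fold change was 0.22 (standard error 0.10, edgeR adjusted p = 0.292), and 0.07 on the TPM scale, beside that median of -0.16. Atf4 is known to be controlled mainly in translation, which RNA counts do not show.

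Ddit3, the gene of CHOP, stood at 24.3, 25.7, 18.3 and 20.04 CPM in Ctrl and at 15.3, 21.3 and 29.3 CPM in CKO, with a log2 fold change of -0.03 (standard error 0.17). Xbp1 stood at 113, 41.5, 153 and 140 CPM in Ctrl and at 110, 133 and 187 CPM in CKO, with a log2 fold change of 0.29 (standard error 0.30). Ctrl 2 was far below all other libraries. In that library the main Xbp1 transcript, ENSMUST00000063084, was at 11.5 TPM against 81.4 to 117 TPM elsewhere, while the other transcripts were at up to 40.7 TPM. The splicing of Xbp1 by IRE1 is not resolved in these files. Trib3, a pseudokinase gene downstream of ATF4 and CHOP, stood at 2.88 to 11.4 CPM in Ctrl and 5.14 to 9.83 CPM in CKO, and Chac1, a glutathione-degrading enzyme gene, at 4.44 to 8.66 and 5.16 to 10.8 CPM. Their log2 fold changes were -0.19 (standard error 0.36) and 0.38 (standard error 0.29).

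**Figure D2:**
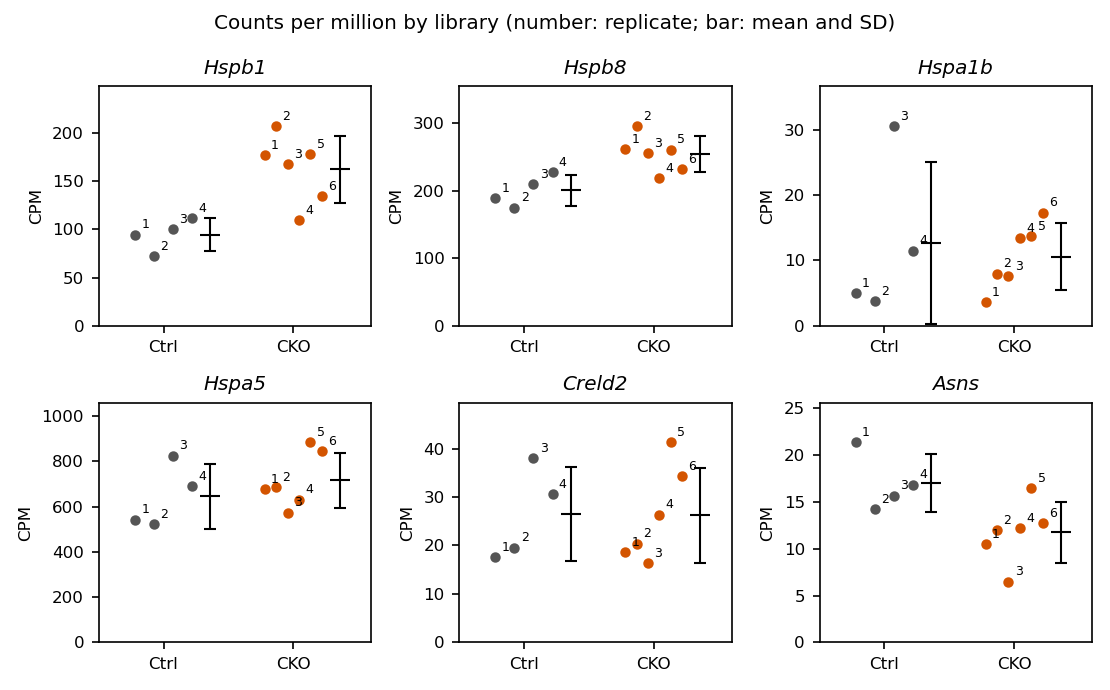
CPM in each library is plotted for 6 members, with the replicate number beside each point and the group mean and SD beside it. On this scale Hspb1 and Hspb8 have 5 of 6 CKO points above all Ctrl points and Asns has 5 of 6 below. In TPM, where the median log2 fold change of all genes was -0.16, these counts are 5, 1 and 3 of 6. Hspa1b, Hspa5 and Creld2 overlap widely between the groups.

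Per length, the most abundant members were Hspa8, ER chaperone genes and small heat shock genes. Over all 10 libraries Hspa8 had 972 ± 274 TPM (SD), Hspa5 594 ± 104, Calr 399 ± 50.8, Hspb7 396 ± 116, Hsp90b1 384 ± 50.5 and Hspb1 286 ± 81.3. Calr, Hspb7 and Hsp90b1 differed by less than their spread. At the low end stood Chac1 with 8.09 ± 2.90 TPM, Hspa1b with 7.84 ± 5.40, Trib3 with 6.83 ± 3.02 and Hspa1a with 5.58 ± 3.60, which did not differ beyond their spread. The inducible HSP70 genes thus stood far below Hspa8 in TPM.

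Within each group, the libraries differed in a way that many members shared. Ctrl 1 and Ctrl 2 were the lowest Ctrl pair for 14 of 17 ER members and for 8 of 10 cytosolic members. Ctrl 3 was the highest Ctrl library for 13 of the 17 ER members, CKO 5 was the highest CKO library for 14 and CKO 3 the lowest CKO library for 11. The mean deviation of the ER members from their own group's mean was -0.25, -0.19, 0.35 and 0.10 on the log2 scale for Ctrl 1 to 4. For CKO 1 to 6 it was -0.06, -0.18, -0.26, -0.04, 0.37 and 0.17. These spreads within a group were wider than the median difference of 0.12 between the groups. Members of a library share its RNA and its scaling, so they are not separate observations. The share of all tested genes with the same order of libraries was not counted.

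**Figure D3:**
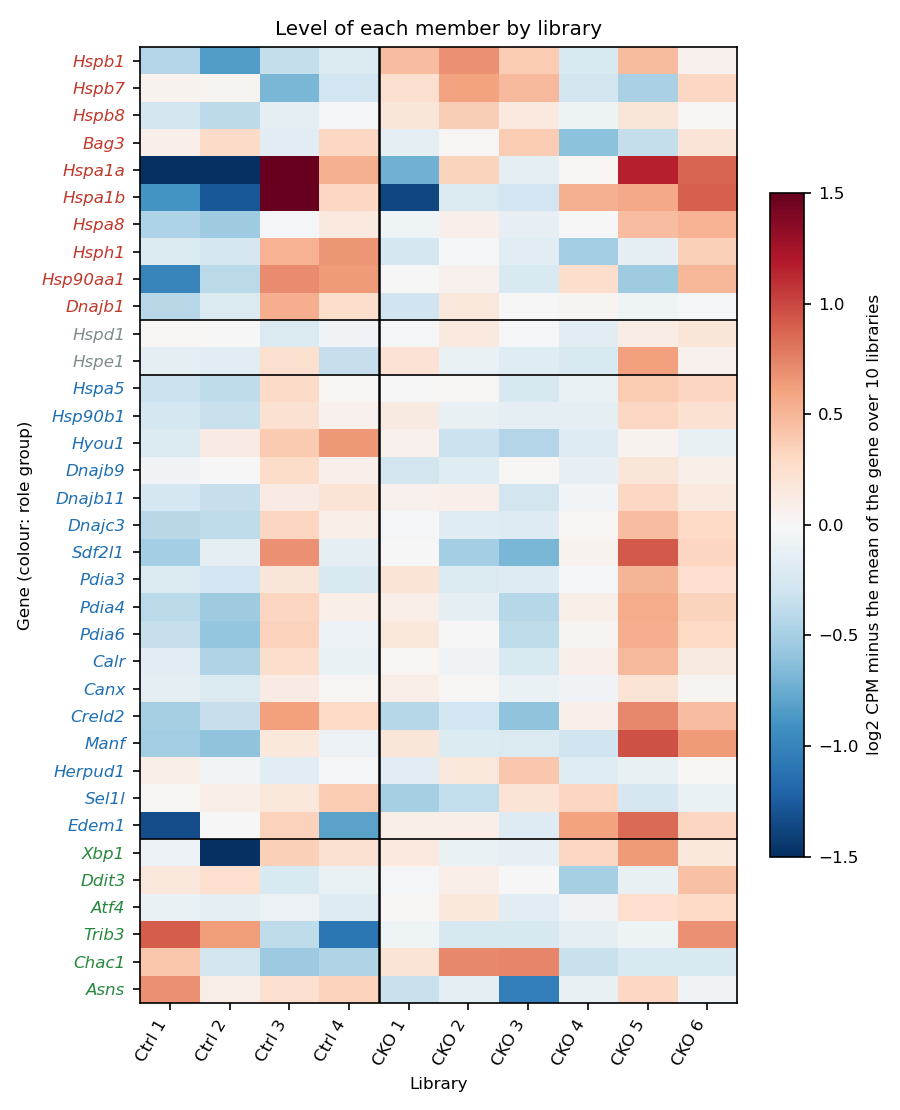
Each row is a member and each column a library; colour gives log2 CPM minus the member's mean over the 10 libraries, on a scale that stops at 1.5 in either direction. ER folding members are low in Ctrl 1 and Ctrl 2 and high in Ctrl 3 and CKO 5, and the black vertical line separates Ctrl from CKO.

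Xist, the RNA of the inactive X chromosome, separated the libraries in a similar way. Ctrl 1, Ctrl 2 and CKO 1, 2 and 3 held 1004 to 1371 CPM of it, whereas the remaining 5 libraries held 1.44 to 6.44 CPM. The sex of the animals is not in the labels, and the split runs with the replicate numbers, so that it cannot be told apart from any order of handling they may reflect. With the Xist level as a term beside genotype, a fit chosen after the library pattern was seen, 0 of 35 members passed an adjusted p of 0.05, against 0.062% of all tested genes. At an unadjusted edgeR p under 0.05 there were 19 of 35 members (54.3%), against 12.9% of all tested genes. The library pattern of these same members prompted the fit, and members share their libraries, so the higher share is not a test of them. Among the 19 members, 17 were higher with low Xist and 2, Hspb7 and Chac1, higher with high Xist. Of the 17 ER members, 16 were higher in the libraries with low Xist, Herpud1 being the exception. The share of all tested genes with that sign was not counted. Values of this term are log2 differences scaled to the library with the highest Xist against the lowest, a range of 9.84 in log2 CPM. On that scale the ER members had a median of -0.41 and all tested genes one of -0.02. Creld2 had the lowest adjusted p of the members, 0.0719 (edgeR), with a value of -1.02. Hspa1a and Hspa1b had values of -1.98 and -1.93. Among the small heat shock genes Hspb7 had a value of 0.62 (edgeR adjusted p = 0.223), Hspb1 one of 0.11 and Hspb8 one of 0.01, and Chac1 had one of 0.86 (edgeR adjusted p = 0.165).

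B and plasma cell transcripts were high in Ctrl 3, Ctrl 4 and CKO 4, which also had low Xist. Without those 3 libraries no Ctrl library with low Xist is left, so the Xist term compares CKO 5 and CKO 6 with CKO 1 to 3 alone. In that fit 28 of 35 members, and 16 of 17 ER members, were higher with low Xist, a direction not counted over all tested genes. These libraries were chosen after seeing the data, with CKO 5 already the highest CKO library for 14 of 17 ER members. The fit therefore restates that pattern and is not a separate test of it. At an unadjusted edgeR p under 0.05 there were 12 of 35 members, against 6.85% of all tested genes, and 0 passed the adjusted threshold. The split still ran with the replicate numbers, so Xist and any order of handling cannot be told apart there. With the Xist level as a covariate and all libraries kept, 0 members were called for genotype. Without those 3 libraries, Hspb1 had a log2 fold change of 1.06 for genotype (edgeR adjusted p = 0.0478).

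The same members in the left atrial appendage are described from the authors' deposited table, whose false discovery rates (FDR) cover 13646 genes, since the appendage count columns were not used here. Its region comparison shares control libraries with both deletion comparisons, and the appendage libraries come from an earlier study, so values are given side by side. In the peri-pulmonary vein the authors' deposited table called 1 of 35 members (2.86%, against 5.5% of all genes in it), Hspb1, with a log2 fold change of 0.76 (FDR 0.00837). In the appendage the authors' deposited table called 11 of 35 (31.4%), against 34.7% of all genes, and 10 were higher and 1 lower, against 16.8% higher and 17.9% lower among all genes. Taken over both directions, the share of members called was thus near or below the background in each region. By direction, in the appendage it was above the background for higher and below it for lower, which was not tested. Whether the effect of the deletion differed between regions was not tested.

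By group, the authors' deposited table called 4 of 10 cytosolic members in the appendage (40.0%, against 34.7% of all genes). Hspb1, Hspb7 and Hspb8 were higher there, with log2 fold changes of 0.77, 0.72 and 0.48 (FDR 0.00481, 0.000969 and 0.0336 in the authors' deposited table). Hsph1 was lower at -0.78 (FDR 0.000874, the authors' deposited table). In the peri-pulmonary vein the same table gave 0.37, 0.32 and -0.36 for Hspb7, Hspb8 and Hsph1, none with an FDR under 0.05. Of the 17 ER members, the authors' deposited table called 5 in the appendage (29.4%, against 34.7% of all genes). All 5 were higher, beside 16.8% of all genes called higher: Edem1 at 1.49, Pdia4 at 0.76, Manf at 0.74, Pdia6 at 0.66 and Pdia3 at 0.47. Their values for the peri-pulmonary vein in the authors' deposited table were 0.62, 0.19, 0.47, 0.25 and 0.22, and 0 of 17 passed there. Whether the authors' Edem1 values, in the appendage or between regions, depend on how coverage was shared between its transcripts was not tested either. Hspa5 stood at 0.29 in the appendage (FDR 0.275) and 0.13 in the peri-pulmonary vein in the authors' deposited table, so BiP did not pass in either.

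Atf4 and Asns had log2 fold changes of 0.68 and 0.95 in the appendage (FDR 0.00108 and 0.0352, the authors' deposited table) and of 0.21 and -0.55 in the peri-pulmonary vein. Asns therefore had opposite signs in the 2 regions, with a called value in the appendage and an uncalled one in the peri-pulmonary vein. The authors' deposited table gave Ddit3, Trib3 and Chac1 values between -0.25 and -0.02 in the appendage, none called.

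Between regions, the authors' deposited table called 1 of 35 members (2.86%, against 12.2% of all genes). Asns was 2.65 higher on the log2 scale in the peri-pulmonary vein than in the appendage (FDR 5.85e-12, the authors' deposited table). Since the appendage libraries come from an earlier study, region and study cannot be told apart in this comparison. The direction was read from transcripts of the airway lining, since Scgb1a1 and Bpifa1 stood at 13.8 and 15.2 in the same column of the authors' deposited table. Trib3 at 1.10 (FDR 0.0703) and Edem1 at 0.90 (FDR 0.0688) in the authors' deposited table did not pass. The cytosolic members ran from -0.47 for Hspb1 to 0.73 for Hspa1b in that column, and the ER members had a median of 0.00.

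**Figure D4:**
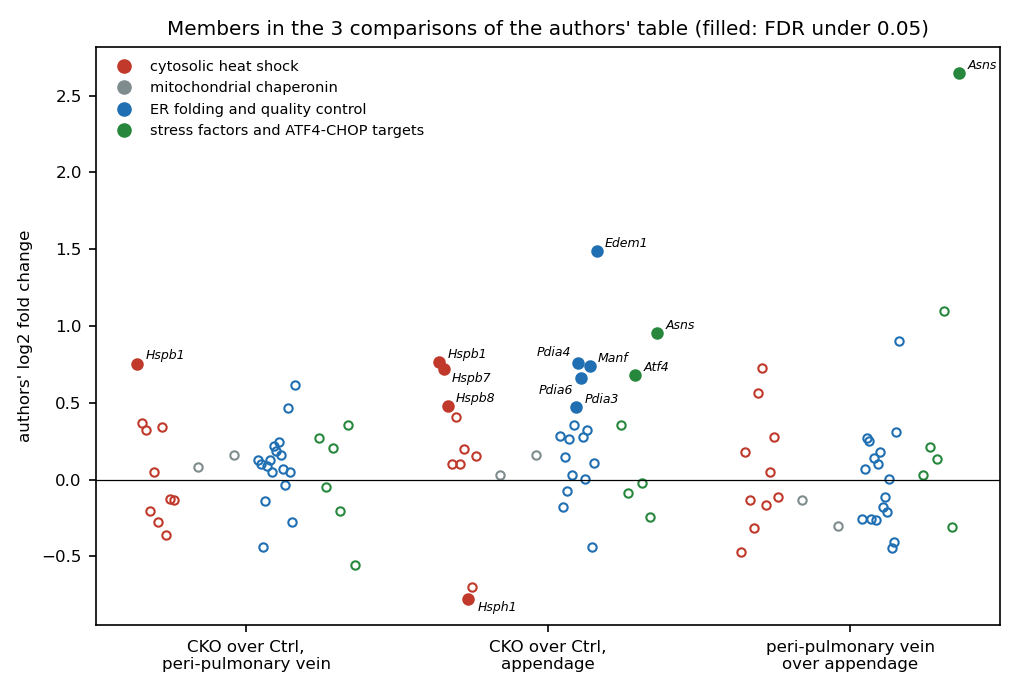
The authors' log2 fold changes of the 35 members are plotted for 3 comparisons, with filled points where the FDR was under 0.05 and names beside them. There is 1 filled point for the peri-pulmonary vein, 11 for the appendage and 1 for the region comparison, where Asns stands at 2.65.

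Other genes of the same pathways were taken from lists of 149 symbols, of which 145 were tested. In the peri-pulmonary vein 4 of the 145 (2.76%) passed the adjusted threshold, beside the 2.8% of all tested genes, and all 4 were higher in CKO. Of 45 further cytosolic chaperones and heat shock factors 2 passed, of 11 mitochondrial chaperones and proteases 0, of 56 ER sensors and folding or degradation genes 1, and of 33 genes of ATF4 and the integrated stress response 1. Hspb6, a small heat shock protein of muscle, stood at 122, 109, 82.0 and 109 CPM in Ctrl and at 198, 237 and 307 CPM in CKO. Every CKO library exceeded every Ctrl library, and the log2 fold change was 1.22 (standard error 0.15, adjusted p = 0.0022, edgeR). Hspb6 passed in all 10 fits that left out 1 library.

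Tmx1, a membrane-bound ER thioredoxin, stood at 65.7, 85.1, 76.4 and 56.6 CPM in Ctrl and at 111, 135 and 153 CPM in CKO, without overlap. Its log2 fold change was 0.91 (standard error 0.14, edgeR adjusted p = 0.00659), and it too passed in all 10 of those fits. Atf3, a stress-induced transcription factor that was also on the list of immediate early genes, stood at 16.3, 8.41, 26.9 and 29.6 CPM in Ctrl and at 44.8, 116 and 193 CPM in CKO. The log2 fold change was 2.47 (standard error 0.46, edgeR adjusted p = 0.0166), lost without Ctrl 1 or without Ctrl 2 (edgeR adjusted p of 0.0687 and 0.0532). Hmox1, the heme oxygenase gene, stood at 13.9, 16.5, 21.99 and 11.5 CPM in Ctrl and at 26.6, 31.0 and 47.7 CPM in CKO. Its log2 fold change was 1.05 (standard error 0.21, edgeR adjusted p = 0.0252), and the call was lost in 5 of the 10 fits, without Ctrl 1, Ctrl 2, Ctrl 4, CKO 1 or CKO 6 (edgeR adjusted p of 0.0503 to 0.0959). Without Ctrl 3, Ctrl 4 and CKO 4 together, Hspb6 still passed and the other 3 did not (edgeR adjusted p of 0.0724, 0.0636 and 0.063 for Tmx1, Atf3 and Hmox1), while their log2 fold changes were 0.83, 3.12 and 1.18 in that fit.

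The authors' deposited table called these 4 genes higher in both regions, with log2 fold changes of 1.21 and 1.07 for Hspb6, 0.89 and 1.40 for Tmx1, 2.45 and 3.01 for Atf3 and 1.03 and 1.15 for Hmox1 in the peri-pulmonary vein and the appendage. Its peri-pulmonary vein values rest on the same libraries that picked these genes, so they are not a separate test. In the appendage 16.8% of all genes were called higher. The regulators themselves did not pass in the peri-pulmonary vein: Hsf1 had a log2 fold change of -0.17 (standard error 0.12), and the sensor genes Ern1 (IRE1), Eif2ak3 (PERK) and Atf6 stood at 0.07, 0.11 and 0.30 (standard errors 0.11, 0.07 and 0.17). The abundant cytosolic chaperone genes Cryab and Hsp90ab1 stood at -0.16 and -0.08 (standard errors 0.26 and 0.12). Cryab, with 1115 TPM over all libraries, is also a small heat shock gene, so genes of that family did not all have positive values. Hspb2 and Hspb3, among the further cytosolic genes tested, did not pass.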

How the data were processed

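The deposited gene table holds expected counts, whole numbers estimated by the authors with StringTie, and the deposited transcript files hold TPM; the authors' deposited comparison table holds log2 fold changes with p-values and FDR. Per the submitters' processing notes the tools were TopHat2 2.1.1, StringTie 1.3.3, edgeR 3.18.1, limma 3.32.10 and R 3.4.0. Per the file headers StringTie used Ensembl release 94 of GRCm38 with a stranded setting. Per the labels' protocols ribosomal RNA was removed and a TruSeq v2 kit used, whereas the molecule label names polyA RNA. A further 10 value columns of the gene table belong to no sample in the labels and were not used.

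Counts were tested with edgeR 4.0.16 (R 4.3.3): filterByExpr kept 17752 of 33196 genes with any count, TMM factors ran from 0.951 to 1.05, and the quasi-likelihood F test compared CKO with Ctrl, genotype being the sole term, with Benjamini-Hochberg adjustment over all tested genes. Standard errors were taken as the log2 fold change divided by the root of F. In simulated counts of 17335 genes drawn for this comparison, 6.35% of 1.5-fold, 40.7% of 2-fold and 79.4% of 4-fold changes were found, and 0 of 78 calls were false. Over genes of all levels, most changes of 1.5-fold were thus missed in the simulation, and members were not taken separately. Genes were drawn independently, without the differences that libraries share, so the 0 false calls do not carry over to the real libraries. Alternatives were DESeq2 1.42.0, limma-voom and limma 3.58.1 on log2(TPM + 1), other scalings and filters, and fits without single libraries.

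All members are named, with every Ctrl value and the CKO range for those called, for the lowest p up to 2 per role group, and for Hspa1a, Hspa1b, Hspa5, Xbp1, Atf4 and Ddit3; values of a few others were added. The members, role groups and lists were chosen with earlier results of these data known. Marker lists covered cardiomyocytes, airway lining, B and plasma cells, fibroblasts, macrophages (838 to 1753 CPM in Ctrl, 1228 to 2359 CPM in CKO), endothelium, smooth muscle (388 to 1103 and 495 to 1141 CPM) and immediate early genes. The labels give animals no litter or batch, so p-values measure the spread between these libraries. Promoter sequences are those of RefSeq on GRCm38.p6.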

Additional observations from a re-analysis of the deposited data

Results flagged for a closer look

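In 70 sets of libraries, 35 members by 2 groups, 2 had a library far from the rest of its group, where chance at 1 in 20 would give 3.5. Pdia3, a disulfide isomerase of the ER, stood at 291 CPM in Ctrl 3, against 211 to 220 CPM in the other Ctrl libraries. Ctrl 3 also held airway transcripts at 4055 CPM and B and plasma cell transcripts at 862 CPM, whose part in this value was not tested. Trib3, a pseudokinase gene downstream of ATF4, stood at 9.83 CPM in CKO 6, against 5.14 to 5.82 CPM in the other CKO libraries.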

How the results depend on the processing

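The number of genes called, 497, went to 1132 with DESeq2, 326 with limma on log2(TPM + 1), 37 with a replicate block, 166 without Ctrl 3, Ctrl 4 and CKO 4 (chosen after seeing the data), and 190 to 607 without single libraries, lowest without Ctrl 2. The number of members called, 1, went to 2 with DESeq2, to 0 with library size scaling, no low-count filter, limma-voom, limma on TPM, the replicate block and the Xist covariate, and to between 0 and 1 without single libraries. Library size scaling gave 227 genes higher and 288 lower, against 274 and 223, and a median log2 fold change over all genes of -0.09; limma on TPM had a median of -0.16, and relative to it Hspb1 stood at 0.78. The sign of the log2 fold change held in every setting run for 20 of 35 members. Of 747 values of members other than Hspb1 across settings, 1 passed, Hspb8 with DESeq2. With the replicate block the calls of Hspb1 (adjusted p of 0.326), Hspb6, Tmx1, Atf3 and Hmox1 were lost, while their log2 fold changes were 0.78, 1.33, 0.91, 2.35 and 0.91. Same-numbered Ctrl and CKO libraries had deviations correlated at 0.0173, 0.0752, -0.263 and 0.0726, and 0 of 8 libraries correlated best with their own number, so the numbers were not taken to pair animals. The lowest members had few counts, Hspa1a 16 to 183 per library and Trib3 26 to 108; the effect of depth was not tested.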
